A study of Mus musculus with 9 samples.

Results

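The genes of the vascular endothelial growth factor (VEGF) system were followed in bulk mRNA from subcutaneous neuroblastoma tumors of mice. The 9 genes were taken by symbol, whatever their values, from the 54429 symbols of the count table. They comprised 4 ligands (Vegfa, Vegfb, Vegfc and Pgf), 3 receptor tyrosine kinases (Flt1, Kdr and Flt4) and 2 co-receptors (Nrp1 and Nrp2). All 9 were in the table, and all 9 passed the filter on low counts that left 15931 genes for testing.

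Each library was made from a whole NB9464 tumor, grown from implanted cells of this MYCN-driven mouse neuroblastoma line under the skin of wild type C57BL/6 mice. Treatment began once tumors measured 250 mm3, and the series comprised 3 groups of 3 tumors. Vehicle tumors received neither drug nor radiation. R788 + anti-PDL1 tumors received 50 mg/kg R788 (fostamatinib, a prodrug of a Syk kinase inhibitor) together with an antibody that blocks PD-L1, and Rad + R788 + anti-PDL1 tumors received both of these and 10 Gy of radiation and are also called irradiated tumors. Per the series description, 4 doses were given between days 28 and 37. Mice were 4 to 6 weeks old according to the methods of the study. All tumors came from 1 implanted cell line, so that a difference between groups is measured in a single tumor model, and no group received R788, anti-PDL1 or radiation alone. The extraction label names bone marrow macrophages as the RNA source while the tissue label names whole tumor, and the groups are described here as the tissue label gives them.

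VEGF ligands are secreted proteins that bind receptor tyrosine kinases on endothelial cells and promote the growth, survival and permeability of vessels. Vegfa acts mainly through Kdr, whereas Flt1 binds Vegfa, Vegfb and Pgf tightly with weak kinase activity and also exists in a soluble, secreted form. Vegfc acts through Flt4, largely on lymphatic vessels, and the neuropilins Nrp1 and Nrp2 present VEGF to these receptors and also bind class 3 semaphorins. In tumors Vegfa is a known target of the hypoxia-inducible transcription factors, and VEGF is also produced and sensed by macrophages and other immune cells.

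The libraries held between 18276683 and 23397886 counts. A library with a gene at 3 counts would show it at 0.114 to 0.221 CPM, the count scaled to library size, which is the lower limit of detection used here. Replicate 1 of Rad + R788 + anti-PDL1 stood apart from the rest. Its scaling factor was 0.743 against 0.975 to 1.12 elsewhere, its share of mitochondrial counts was 1.97% against 3.48 to 5.71%, and its correlations with the other libraries were 0.865 to 0.907, against 0.937 to 0.98 among the other 8. The common dispersion was 0.146 with it and 0.0808 without it, so that results are given with and without this library where it moved them. Endothelial markers were present in every library, with Pecam1 between 14.5 and 44.9 CPM, Cdh5 between 5.67 and 28.2 CPM and Tie1 between 3.35 and 11.7 CPM. Of the markers of the labelled tumor line, Mycn was high (93.2 to 250.0 CPM), whereas Th was at 0 in all 9 libraries and Dbh was at 0 in 8 of them. In bulk RNA, fewer cells of a type and less RNA per cell cannot be told apart. The p-values measure the spread between these tumors only.

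All 9 genes are annotated as protein coding in GENCODE M21 (GRCm38). Vegfa (ENSMUSG00000023951.17) lies on chromosome 17 from 46016993 to 46032369 on the minus strand and Vegfb (ENSMUSG00000024962.13) on chromosome 19 from 6982473 to 6987651, also on the minus strand. Nrp1 (ENSMUSG00000025810.9) spans chromosome 8 from 128358604 to 128503363 and Nrp2 (ENSMUSG00000025969.15) chromosome 1 from 62703285 to 62818695, both on the plus strand. An exon of Nrp1 holds the microRNA gene Mir1903 on the same strand, so that reads from either cannot be separated. The counts are summed per gene and do not distinguish the splice forms of Vegfa or the soluble form of Flt1 from the membrane receptor. The sequences just before the start sites of Vegfa, Vegfb, Nrp1 and Nrp2 are printed here because Vegfb, Nrp1 and Nrp2 are the members on which the comparisons turn and Vegfa is the principal ligand. They are from RefSeq (GRCm38.p6), 5′ to 3′ on the strand of the gene, and hold the bases before the RefSeq start site that lie outside annotated exons. The Nrp1 stretch lies inside the GENCODE span of Nrp1, whose annotated start is further upstream. Capitals mark matches to the hypoxia response core (ACGTG or GCGTG), the GC box (GGGCGG) and the ETS core (GGAAG), the latter bound by a transcription factor family that acts in endothelial and immune cells, on either strand, and where matches overlap they run together.
Vegfa (chr17:46032378-46032627, minus strand): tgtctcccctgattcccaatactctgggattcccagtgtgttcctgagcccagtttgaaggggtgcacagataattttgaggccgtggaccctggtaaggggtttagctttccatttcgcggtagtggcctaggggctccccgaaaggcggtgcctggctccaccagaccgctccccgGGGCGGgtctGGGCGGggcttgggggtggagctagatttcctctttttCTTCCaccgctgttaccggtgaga
Vegfb (chr19:6987652-6987901, minus strand): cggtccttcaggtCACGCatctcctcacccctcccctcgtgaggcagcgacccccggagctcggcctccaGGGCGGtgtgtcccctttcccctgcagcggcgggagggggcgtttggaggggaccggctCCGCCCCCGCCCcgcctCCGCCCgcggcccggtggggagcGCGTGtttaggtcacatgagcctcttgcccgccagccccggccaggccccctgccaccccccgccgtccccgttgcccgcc
Nrp1 (chr8:128358823-128359072, plus strand): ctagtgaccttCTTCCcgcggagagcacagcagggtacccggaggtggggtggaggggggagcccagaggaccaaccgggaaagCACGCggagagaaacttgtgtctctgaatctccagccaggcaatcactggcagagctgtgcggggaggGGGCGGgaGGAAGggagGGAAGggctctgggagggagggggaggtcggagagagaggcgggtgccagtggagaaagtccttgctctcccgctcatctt
Nrp2 (chr1:62703067-62703284, plus strand): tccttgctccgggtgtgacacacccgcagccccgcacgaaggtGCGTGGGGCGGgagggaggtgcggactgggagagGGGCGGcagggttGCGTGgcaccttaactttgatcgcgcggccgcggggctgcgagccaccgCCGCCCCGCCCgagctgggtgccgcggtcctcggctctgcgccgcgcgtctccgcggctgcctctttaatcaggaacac

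RefSeq listed a promoter window of 300 bases, from 250 before to 50 after the start site, for 9 of 9 members, and motifs were counted in this whole window. A hypoxia response core was found in the windows of 6 of 9 members, against 43.8% of all 32851 promoters in the table. The Vegfb and Nrp2 windows each held 2 and the Nrp1 window held 1, spelled GCGTG each time, whereas the Vegfa window held none, which says only that these letters are not in this window. The GC box, spelled GGGCGG, was found in 9 of 9 members, against 35.7% of all promoters, with 5 copies in Nrp2, 4 in Vegfb, 2 in Vegfa and 1 in Nrp1. The windows of the members were 60.7% to 75.3% GC, against a median of 52.7% over all promoters. The ETS core, spelled GGAAG, was found in 6 of 9 members, against 71.4% of all promoters. Nrp1 held 4 copies, whereas Vegfb and Nrp2 held none.

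The ligands Vegfb and Vegfa were the most abundant members per length. Levels between genes were compared as CPM per kb of merged exons. In vehicle tumors Vegfb stood at 44.6 ± 3.06 CPM per kb (SD, n = 3), Vegfa at 20.7 ± 7.28 and Pgf at 3.62 ± 1.18, and the ranges of these neighbours in the order did not overlap. Nrp2 (0.990 ± 0.330 CPM per kb), Kdr (0.982 ± 0.195), Flt1 (0.823 ± 0.211) and Nrp1 (0.806 ± 0.185) followed, and each overlapped the next. Flt4 (0.510 ± 0.101 CPM per kb) and Vegfc (0.189 ± 0.0753) were lowest and did not overlap their neighbours above. Both treated groups kept Vegfb first and Vegfa second. In R788 + anti-PDL1 tumors Nrp2 stood at 5.04 ± 2.73 CPM per kb and Nrp1 at 2.79 ± 1.2, which placed the neuropilins next after Vegfa, with ranges that overlapped each other, and Nrp1 also overlapped Pgf (2.54 ± 0.632). In irradiated tumors Pgf came next after Vegfa, at 5.21 ± 2.94 CPM per kb, and overlapped Nrp1 (2.58 ± 1.6). Pgf was at 8.60 CPM per kb in the library that stood apart and at 3.54 and 3.47 in irradiated replicates 2 and 3. With the longest transcript in place of the merged exons Vegfb, Vegfa and Pgf kept their order at the top in vehicle tumors, and Nrp1 moved from the seventh place to the fourth.

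**Figure D1:**
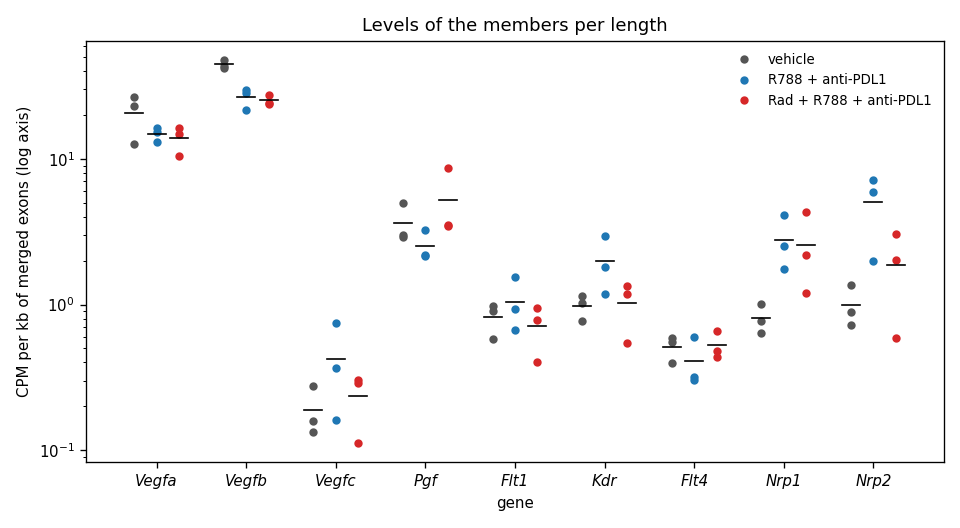
Levels of the 9 genes in CPM per kb of merged exons on a log axis, with 1 point per tumor and the group mean as a bar, for vehicle (grey), R788 + anti-PDL1 (blue) and Rad + R788 + anti-PDL1 (red). Vegfb and Vegfa lie above the other genes in all groups, with vehicle means of 44.6 and 20.7 CPM per kb, and the neuropilins of R788 + anti-PDL1 tumors lie above those of vehicle tumors.

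The comparison of R788 + anti-PDL1 with vehicle tumors asks how Syk inhibition with checkpoint blockade changes the tumor transcriptome. Higher values were seen for the co-receptors Nrp1 and Nrp2 and the receptor Kdr, and lower values for the ligand Vegfb, and the groups did not overlap for any of these 4 genes. None of the 9 members passed edgeR's quasi-likelihood test with Benjamini-Hochberg adjustment at 0.05, where 0.678% of all 15931 genes did. At an unadjusted p below 0.05 there were 4 (Kdr, Nrp1, Nrp2 and Vegfb), and limma-voom called 0, where it called 0.559% of all genes. DESeq2 called 3 of 9 (Nrp1 and Nrp2 higher, Vegfb lower), where it called 4.83% of all genes. Groups that do not overlap were seen for 4 of 9 members, against 30.1% of all genes, with 3 members higher (13.6% of all genes) and 1 lower (16.6%). Over the members the median log2 fold change was 0.35, against -0.02 over all genes, with 5 members above and 4 below 0.

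The comparison of Rad + R788 + anti-PDL1 with vehicle tumors asks the same of the treatment with radiation. Nrp1 was higher and Vegfb lower with no overlap between groups, and the remaining 7 members overlapped. edgeR called 0 of 9 members, where it called 0.0439% of all genes. At an unadjusted p below 0.05 there were 2 (Nrp1 and Vegfb), which were also the 2 that DESeq2 called, where it called 3.84% of all genes, while limma-voom called 0 (0.0502% of all genes). The share of all genes without overlap was 20.5%. The median log2 fold change was 0.06 over the members and 0.05 over all genes.

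The treated groups were set against each other to read the addition of radiation. Pgf was the single member whose groups did not overlap, where 27.4% of all genes did not overlap. edgeR, DESeq2 and limma-voom called 0 of 9 members, where edgeR called 0.00628%, DESeq2 4.98% and limma-voom 0.0502% of all genes. At an unadjusted p below 0.05 edgeR and DESeq2 each gave 3 (Kdr and Nrp2 lower, Pgf higher) and limma-voom 1 (Nrp2). Without the library that stood apart edgeR gave 0 at that level and DESeq2 1 (Nrp2). The median log2 fold change was -0.12 over the members and 0.04 over all genes. Taking both treated groups against vehicle, in which the controls are the same 3 tumors as above, edgeR called 0 of 9 members (0.339% of all genes) and gave 3 at an unadjusted p below 0.05, while DESeq2 called 3 (Nrp1, Nrp2 and Vegfb, against 4.32% of all genes) and limma-voom 0 (0.119%). In that contrast Nrp1 was higher and Vegfb lower in 6 of 6 treated tumors than in any vehicle tumor, where 7.29% of all genes were separate, 3.27% in the higher and 4.02% in the lower direction. Without replicate 1 of Rad + R788 + anti-PDL1, edgeR called both of these members (Nrp1, adjusted p = 0.0286, and Vegfb, adjusted p = 0.0149), where it called 3.13% of all genes. Over all alternatives of this contrast Nrp1 had an adjusted p between 1.2e-06 and 0.611, and Vegfb between 1.5e-06 and 0.446.

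**Figure D2:**
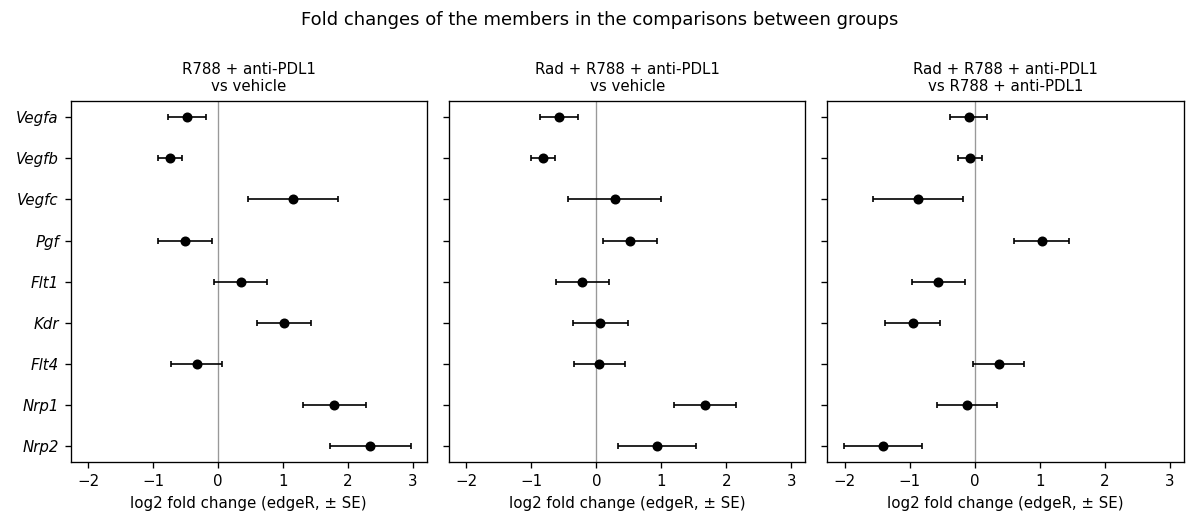
Log2 fold changes of the 9 genes in the comparisons between groups, as points with the SE of edgeR's quasi-likelihood fit as bars and a line at 0. Nrp2 (2.35) and Nrp1 (1.79) lie highest in R788 + anti-PDL1 against vehicle, and Vegfb lies below 0 in both comparisons with vehicle (-0.74 and -0.82).

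Of the 4 ligands among the members, Vegfb was the 1 whose treated and vehicle tumors did not overlap. Vegfb encodes a ligand of Flt1 with a known role in the metabolism and survival of vascular and heart muscle cells. It was at 67.5, 70.1 and 77 CPM in vehicle replicates 1 to 3, at 45.8, 35.0 and 47.5 CPM in R788 + anti-PDL1 and at 44.3, 39.1 and 38.4 CPM in irradiated tumors. Every treated tumor lay below every vehicle tumor, and the treated groups overlapped each other. The group means were 71.5 ± 4.91, 42.8 ± 6.77 and 40.6 ± 3.22 CPM (SD, n = 3). The log2 fold change against vehicle was -0.74 ± 0.18 (SE) in R788 + anti-PDL1 (edgeR adjusted p = 0.114) and -0.82 ± 0.18 in irradiated tumors (adjusted p = 0.155). DESeq2 gave adjusted p of 0.00695 and 0.00367 for the same comparisons. Across the alternatives the log2 fold change stayed between -0.82 and -0.62 for the first and between -0.94 and -0.75 for the second, whereas the adjusted p spanned 0.00014 to 0.444 and 9.1e-05 to 0.609, respectively. Without the library that stood apart the second value was -0.85 ± 0.15 (adjusted p = 0.0632). Between the treated groups Vegfb differed by -0.08 ± 0.18 (adjusted p = 0.834). Vegfa and Vegfb are among the genes that the study displayed for immune suppression in these tumors, so that their direction is not independent of that choice.

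Vegfa, the principal ligand of vessel growth, was lower on average in both treated groups but overlapped. Its level was 53.8, 114.0 and 98.4 CPM in vehicle tumors, 70.2, 55.8 and 65.1 CPM in R788 + anti-PDL1 and 45.0, 63.9 and 70.0 CPM in irradiated tumors. Vehicle replicate 1 was below 5 of the 6 treated tumors, while the other two vehicle tumors were above all of them. The means were 88.7 ± 31.2, 63.7 ± 7.32 and 59.6 ± 13.0 CPM. Vegfa differed from vehicle by a log2 fold change of -0.48 ± 0.29 in R788 + anti-PDL1 (edgeR adjusted p = 0.602) and -0.57 ± 0.29 in irradiated tumors (adjusted p = 0.404). Leaving out vehicle replicate 1 moved these values to -0.71 ± 0.24 (adjusted p = 0.322) and -0.82 ± 0.24 (adjusted p = 0.25), and leaving out vehicle replicate 2 moved them to -0.26 ± 0.31 (adjusted p = 0.854) and -0.35 ± 0.31 (adjusted p = 0.755). Without the library that stood apart the value of irradiated tumors was -0.37 ± 0.27 (adjusted p = 0.527).

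Pgf encodes placental growth factor, which binds Flt1 but not Kdr. It was at 14.5, 8.39 and 8.71 CPM in vehicle tumors, at 6.25, 9.50 and 6.39 CPM in R788 + anti-PDL1 and at 25.0, 10.3 and 10.1 CPM in irradiated tumors. The highest value came from the library that stood apart, and the remaining irradiated tumors lay just above the highest R788 + anti-PDL1 value. The log2 fold change of Rad + R788 + anti-PDL1 was 1.03 ± 0.42 against R788 + anti-PDL1 (edgeR adjusted p = 0.251) and 0.52 ± 0.41 against vehicle (adjusted p = 0.553). Without replicate 1 of that group these became 0.47 ± 0.32 (adjusted p = 0.502) and -0.02 ± 0.33 (adjusted p = 0.985). R788 + anti-PDL1 against vehicle gave -0.51 ± 0.42 (adjusted p = 0.720).

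Vegfc, the ligand of lymphatic vessel growth, was near the limit of detection, with 6 to 48 counts per library. It ranged from 0.329 to 0.673 CPM in vehicle tumors, from 0.396 to 1.83 CPM in R788 + anti-PDL1 and from 0.274 to 0.737 CPM in irradiated tumors. The highest value was that of R788 + anti-PDL1 replicate 2, and all groups overlapped. The log2 fold changes against vehicle were 1.16 ± 0.70 (adjusted p = 0.6) and 0.28 ± 0.71 (edgeR adjusted p = 0.855).

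**Figure D3:**
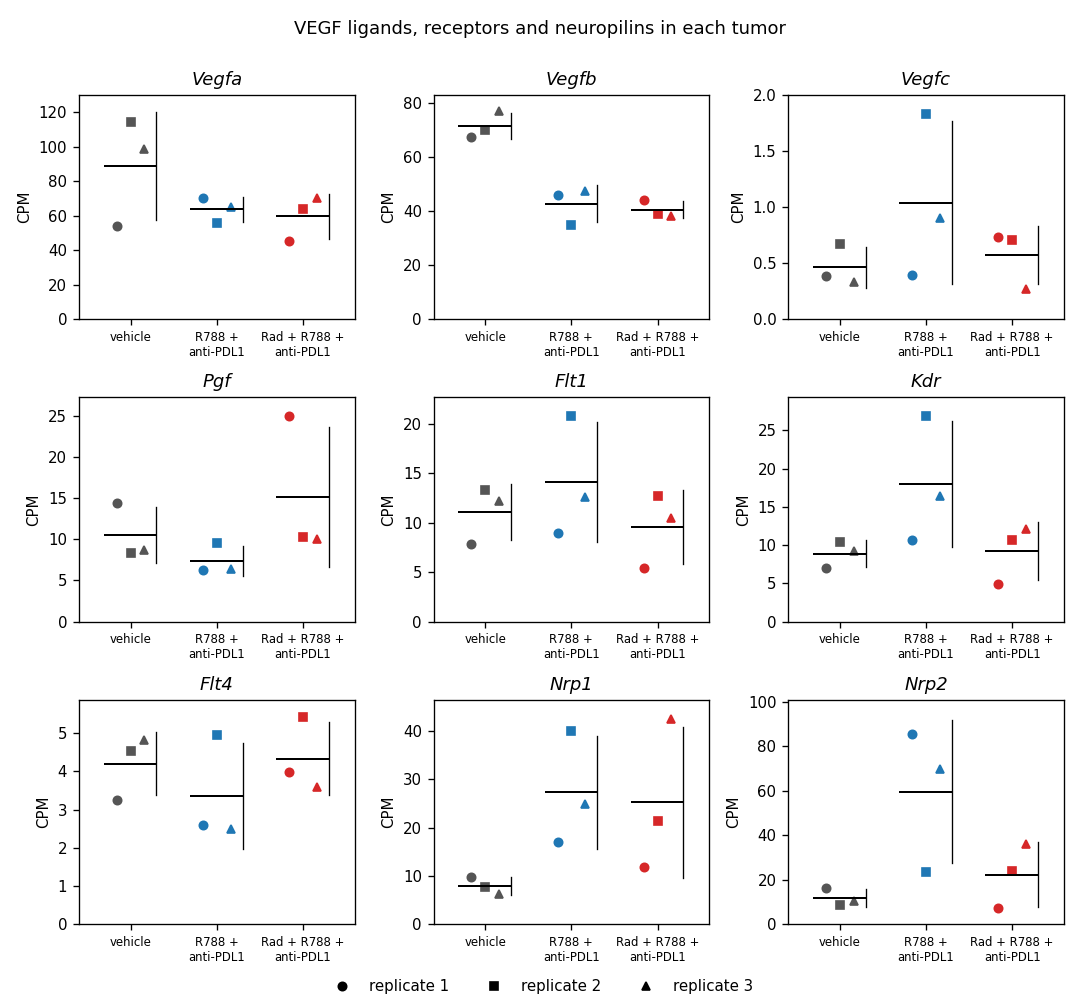
CPM of each of the 9 genes in each tumor, with symbols for replicates 1 to 3, the group mean as a horizontal bar and the SD as a vertical line beside it (n = 3). Vegfb of all treated tumors (35.0 to 47.5 CPM) lies below vehicle (67.5 to 77 CPM), and Nrp1 of all treated tumors (11.8 to 42.5 CPM) lies above vehicle (6.24 to 9.82 CPM).

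Kdr, the main signalling receptor for Vegfa on endothelial cells, was highest on average in R788 + anti-PDL1 tumors. It was at 6.95, 10.4 and 9.25 CPM in vehicle tumors, at 10.7, 26.8 and 16.5 CPM in R788 + anti-PDL1 and at 4.94, 10.6 and 12.1 CPM in irradiated tumors. The lowest R788 + anti-PDL1 tumor lay only just above the highest vehicle tumor, and the irradiated group overlapped both. The log2 fold change of R788 + anti-PDL1 against vehicle was 1.02 ± 0.42 (2.03-fold, edgeR adjusted p = 0.384). Irradiated tumors differed from vehicle by 0.06 ± 0.42 (adjusted p = 0.949) and by -0.96 ± 0.42 from R788 + anti-PDL1 tumors (adjusted p = 0.267). Without R788 + anti-PDL1 replicate 2, the first of these was 0.61 ± 0.42 (adjusted p = 0.727). Without the library that stood apart the irradiated tumors differed by 0.39 ± 0.37 from vehicle (adjusted p = 0.635) and by -0.66 ± 0.37 from R788 + anti-PDL1 tumors (adjusted p = 0.413).

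Flt1, which binds Vegfa, Vegfb and Pgf, was at 7.89, 13.3 and 12.2 CPM in vehicle tumors, at 8.99, 20.8 and 12.6 CPM in R788 + anti-PDL1 and at 5.45, 12.7 and 10.5 CPM in irradiated tumors. The groups overlapped, and R788 + anti-PDL1 replicate 2 was highest, as it was for Kdr. Against vehicle Flt1 gave a log2 fold change of 0.35 ± 0.41 in R788 + anti-PDL1 (edgeR adjusted p = 0.812) and -0.21 ± 0.41 in irradiated tumors (adjusted p = 0.807). Flt4, the receptor for Vegfc, ranged from 3.26 to 4.82 CPM in vehicle tumors, from 2.50 to 4.96 CPM in R788 + anti-PDL1 and from 3.60 to 5.42 CPM in irradiated tumors. All groups overlapped for Flt4, and its log2 fold changes against vehicle were -0.32 ± 0.39 (adjusted p = 0.819) and 0.05 ± 0.39 (adjusted p = 0.960).

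The neuropilins gave the greatest fold changes among the members in the comparisons with vehicle. Nrp1, a co-receptor of Vegfa and Kdr that is also present on macrophages and some T cells, was at 9.82, 7.58 and 6.24 CPM in vehicle tumors. It was at 17.0, 40.1 and 24.8 CPM in R788 + anti-PDL1 tumors and at 11.8, 21.3 and 42.5 CPM in irradiated tumors. All 6 treated tumors exceeded all vehicle tumors, although values within each treated group spread widely, with means of 27.3 ± 11.7 and 25.2 ± 15.7 CPM against 7.88 ± 1.81 CPM. Against vehicle Nrp1 gave a log2 fold change of 1.79 ± 0.48 (3.47-fold) in R788 + anti-PDL1 (edgeR adjusted p = 0.147) and 1.68 ± 0.48 (3.20-fold) in irradiated tumors (adjusted p = 0.25). DESeq2 gave adjusted p of 0.00668 and 0.0207. Over the alternatives the values stayed between 1.41 and 2.04 in the first and between 1.07 and 2.07 in the second comparison, with adjusted p from 4.6e-05 to 0.498 and from 0.00014 to 0.707. Without the library that stood apart the second value was 2.05 ± 0.41 (edgeR adjusted p = 0.0749). Between the treated groups Nrp1 differed by -0.12 ± 0.46 (adjusted p = 0.906), and by 0.23 ± 0.40 (adjusted p = 0.814) without that library.

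Nrp2, a co-receptor for Vegfc and Flt4 on lymphatic and venous endothelium, was at 16.1, 8.61 and 10.5 CPM in vehicle tumors. It was at 85.5, 23.5 and 70.0 CPM in R788 + anti-PDL1 and at 7.0, 23.8 and 36.0 CPM in irradiated tumors. The R788 + anti-PDL1 tumors all lay above vehicle, whereas the irradiated tumor of the library that stood apart was the lowest of all 9 and the remaining irradiated tumors lay above vehicle. The log2 fold change of R788 + anti-PDL1 against vehicle was 2.35 ± 0.62 (5.09-fold, edgeR adjusted p = 0.143). DESeq2 gave an adjusted p of 0.00295, and the alternatives ranged from 2.0 to 2.73 with adjusted p from 1.7e-06 to 0.471. Rad + R788 + anti-PDL1 gave 0.93 ± 0.60 against vehicle (adjusted p = 0.475) and 1.39 ± 0.49 (adjusted p = 0.213) without its replicate 1. Between the treated groups Nrp2 differed by -1.42 ± 0.60 (adjusted p = 0.260), and by -0.98 ± 0.50 (adjusted p = 0.363) without that library.

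Ratios within a library remove the common scaling. The log2 ratio of Flt1 to Kdr counts was 0.18, 0.35 and 0.39 in vehicle tumors, -0.25, -0.36 and -0.38 in R788 + anti-PDL1 and 0.14, 0.26 and -0.21 in irradiated tumors. Kdr exceeded Flt1 in all 3 R788 + anti-PDL1 tumors and in no vehicle tumor. The difference between these groups was -0.64, with a pooled SD of 0.095, and the two-sided exact permutation test gave p = 0.1, the smallest that 3 against 3 tumors allow. The irradiated tumors lay above R788 + anti-PDL1 by 0.39 without overlap (exact permutation p = 0.1) and overlapped vehicle. The log2 ratio of Nrp1 to Nrp2 was -2.32, 0.77 and -1.49 in R788 + anti-PDL1 against -0.71, -0.18 and -0.74 in vehicle and 0.75, -0.16 and 0.24 in irradiated tumors. The irradiated tumors lay above vehicle by 0.82 without overlap (exact permutation p = 0.1). Within R788 + anti-PDL1 the tumor highest in Nrp1 was thus the lowest in Nrp2. The 9 ratios and the summed endothelial level were each tested in 4 comparisons, and after Benjamini-Hochberg adjustment over these 40 tests the lowest adjusted exact permutation p was 0.364.

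The receptors were set against a list of 20 endothelial markers because these receptors are known above all from endothelial cells. The summed level of the list was 116 to 127 CPM in vehicle tumors, 112 to 300 CPM in R788 + anti-PDL1 and 151 to 214 CPM in irradiated tumors. It was highest in R788 + anti-PDL1 replicate 2, the tumor that was also highest in Flt1 and Kdr. Relative to this sum Kdr in R788 + anti-PDL1 differed from vehicle by 0.40 on the log2 scale with overlap (exact permutation p = 0.2), and Nrp1 by 1.19 without overlap (2.28-fold, exact permutation p = 0.1). Nrp2 relative to the sum differed by 1.66 and Flt1 by -0.24, both with overlap (exact permutation p = 0.3 and 0.4). Flt4 relative to the sum was lower in R788 + anti-PDL1 than in vehicle by 0.92 on the log2 scale, also without overlap (exact permutation p = 0.1). Kdr relative to the sum was lower in irradiated than in R788 + anti-PDL1 tumors by 0.94 without overlap (exact permutation p = 0.1). The library that stood apart carried much of this. On the log2 scale Kdr to the sum was -5.43 in that library and -3.82 and -3.78 in irradiated replicates 2 and 3. It was -3.48 to -3.34 in R788 + anti-PDL1 and -4.19 to -3.47 in vehicle tumors, so that irradiated replicates 2 and 3 lay within the vehicle range. In irradiated tumors, Nrp1 relative to the sum ranged from -4.18 to -1.97 on the log2 scale and overlapped vehicle (-4.30 to -3.69), and its lowest value was that of the library that stood apart.

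**Figure D4:**
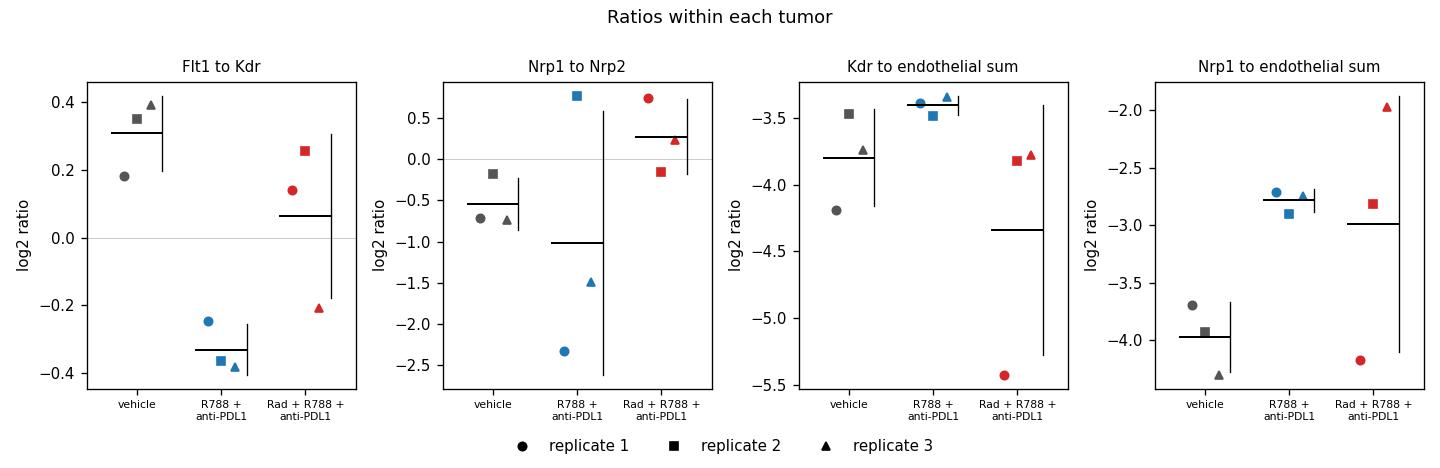
Log2 ratios within each tumor of Flt1 to Kdr and of Nrp1 to Nrp2 counts, and of Kdr and Nrp1 to the summed level of 20 endothelial markers, with symbols for replicates, the mean as a bar and the SD beside it (n = 3). The Flt1 to Kdr ratio of R788 + anti-PDL1 tumors (-0.38 to -0.25) lies below vehicle (0.18 to 0.39), and their Nrp1 level relative to endothelial markers (-2.90 to -2.71) lies above vehicle (-4.30 to -3.69).

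A list of 11 further VEGF and semaphorin ligands and processing factors held a gene that passed edgeR's test. Vegfd, a ligand of Flt4 related to Vegfc, was at 11.4, 20.3 and 16.5 CPM in vehicle tumors, at 5.73, 5.42 and 5.24 CPM in R788 + anti-PDL1 and at 9.43, 8.62 and 7.75 CPM in irradiated tumors. It was lower in every treated tumor than in any vehicle tumor. It fell by 1.56 ± 0.27 on the log2 scale in R788 + anti-PDL1 (edgeR adjusted p = 0.0412), and the value in irradiated tumors was -0.90 ± 0.27 (adjusted p = 0.265, and 0.0448 by DESeq2). Of the 10 tested genes of that list Vegfd was the 1 called, where 0.678% of all genes were called. The median of the list was 0.31 in R788 + anti-PDL1 tumors and -0.11 in irradiated tumors, each relative to vehicle, against -0.02 and 0.05 over all genes. Without R788 + anti-PDL1 replicate 2 the first median was -0.31, and without replicate 1 of that group it was 0.61. Among its 7 tested class 3 semaphorins, which bind neuropilins, Sema3e gave 2.75 ± 0.61 (adjusted p = 0.0879), Sema3c 2.15 ± 0.55 (adjusted p = 0.131) and Sema3a 1.16 ± 0.34 (adjusted p = 0.189) in R788 + anti-PDL1 by edgeR. DESeq2 called these 3 of the 7 in that comparison, with adjusted p of 0.00021, 0.00299 and 0.0233. The other semaphorins, Sema3b (0.19), Sema3d (1.53), Sema3f (-0.13) and Sema3g (0.42, edgeR log2 fold changes), were called by neither tool. With Vegfd, DESeq2 called 4 of the 10 tested genes of the list, where it called 4.83% of all genes, and in irradiated tumors it called 2 (Sema3e and Vegfd, against 3.84% of all genes).

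Of 34 tested receptor partners and signalling effectors, edgeR called 1 in each comparison with vehicle, where it called 0.678% of all genes in R788 + anti-PDL1 and 0.0439% in irradiated tumors, and DESeq2 called 4 and 3. That gene was Cav1, the coat protein of caveolae to which Kdr is known to localize. It was at 5.02, 4.35 and 6.41 CPM in vehicle tumors, at 16.4, 20.8 and 18.3 CPM in R788 + anti-PDL1 and at 30.9, 67.3 and 54.6 CPM in irradiated tumors. It rose by 1.82 ± 0.31 in R788 + anti-PDL1 (edgeR adjusted p = 0.0397) and by 3.28 ± 0.32 in irradiated tumors (adjusted p = 0.0107). The list's median was 0.05 and 0.03 in these comparisons, close to that of all genes. Of 23 tested VEGF response and tip cell genes, edgeR called 1 higher in R788 + anti-PDL1 and 0 in irradiated tumors, while DESeq2 called 3 and 2. For this list, the 34 genes above and the later lists, DESeq2 called 4.83% of all genes in R788 + anti-PDL1 and 3.84% in irradiated tumors. The gene called by edgeR was Egr3, an immediate early transcription factor known to be induced by VEGF and by other signals. It stood at 0.938, 1.08 and 1.31 CPM in vehicle tumors against 3.83, 7.36 and 5.89 CPM in R788 + anti-PDL1, a log2 fold change of 2.36 ± 0.43 (adjusted p = 0.0476), and at 2.87, 4.61 and 6.16 CPM in irradiated tumors (2.03 ± 0.43, adjusted p = 0.142). The median over that list was 0.05 and -0.0034. With 1 of the 6 libraries compared left out at a time, edgeR called Vegfd in R788 + anti-PDL1 in 1 of 6 fits (without vehicle replicate 1). It called Cav1 and Egr3 in that comparison in 0 of 6, and Cav1 in irradiated tumors in 4 of 6 (not without vehicle replicates 2 or 3). Over all 15931 genes the first comparison gave 77 calls without vehicle replicate 1, 33 without R788 + anti-PDL1 replicate 2 and 0 otherwise. Irradiated tumors gave 57, 3 and 4 without irradiated replicates 1 to 3 and 22, 1 and 1 without vehicle replicates 1 to 3. Where a fit called 0 of all genes, the absence of a call does not single out these genes.

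Marker lists of several cell types are given beside the values of the neuropilins and Kdr, and their part in these values was not tested. Of the 20 endothelial markers, 19 had values above 0 in R788 + anti-PDL1 against vehicle and 18 in irradiated tumors, with medians of 0.89 and 0.39, and edgeR called 0 in either, while DESeq2 called Pecam1 and S1pr1 in the first. Over all genes 48.4% and 52.9% had values above 0 in these comparisons. Without R788 + anti-PDL1 replicate 2 the first median was 0.34, with 14 of 20 above 0. The second was 0.19 without irradiated replicate 3, with 15 of 20 above 0. Of 14 macrophage markers, 14 and 12 were above 0, with medians of 0.63 and 1.19 and 0 called by edgeR, while DESeq2 called Aif1 and C1qa higher in irradiated tumors. The second median was -0.49 without irradiated replicate 3, with 6 of 14 above 0, and the first was 1.12 without vehicle replicate 1. Their summed level was 343 to 707 CPM in vehicle tumors, 755 to 769 CPM in R788 + anti-PDL1 and 379 to 2019 CPM in irradiated tumors, where replicate 3, the tumor highest in Nrp1, was the highest. Of 8 tested T and NK cell genes, 7 had values above 0 in R788 + anti-PDL1 and 8 in irradiated tumors, with medians of 2.12 and 2.13. The first median was 1.16 without R788 + anti-PDL1 replicate 2, and the second was 0.99 without irradiated replicate 3. The summed level of 12 T and NK cell markers was 5.15 to 10.5 CPM in vehicle, 21.6 to 30.4 CPM in R788 + anti-PDL1 and 9.80 to 48.8 CPM in irradiated tumors, with Cd3d at 0 in 3 libraries. Cd4, which macrophages can also express, made up 22.9 and 12.2 CPM of this sum in R788 + anti-PDL1 replicates 1 and 3, and Gzma 8.05 CPM in replicate 2, and DESeq2 called both higher in that comparison. Cd3e, which defines T cells, was at 0.0409 to 0.191 CPM in R788 + anti-PDL1 against 0.135 to 0.274 CPM in vehicle tumors, and at 0.147, 0.152 and 2.46 CPM in irradiated replicates 1 to 3. Cd3d (0.0881 to 0.246 against 0 to 0.0552 CPM) and Cd3g (0.0819 to 0.648 against 0.0449 to 0.110 CPM) leaned the other way. In irradiated replicates 1 to 3 Cd3d was at 0, 0.0507 and 1.87 CPM and Cd3g at 0.221, 0.0507 and 2.51 CPM. Cd3e, Cd3d and Cd3g failed the filter on low counts, and most of their values outside irradiated replicate 3 lay near or below the limit of detection.

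Mural cell markers summed to 240 to 287, 242 to 405 and 178 to 287 CPM, and fibroblast markers to 3044 to 3843, 2926 to 5474 and 2579 to 4996 CPM. The lymphatic markers summed to 20.6 to 28.5, 6.43 to 31.0 and 25.2 to 26.6 CPM, with Prox1 between 0.661 and 2.46 CPM and Lyve1 at 0 in 1 library. Pdpn was the largest part of this sum in every library, so that the sum mostly follows this gene. Pdpn made up 18.6 of 20.6 CPM in vehicle replicate 1 and 23.8 of 26.2 CPM in irradiated replicate 2. Its part was smallest in R788 + anti-PDL1 replicate 2, at 15.2 of 31.0 CPM. Ccl21a, Mmrn1 and Reln failed the filter on low counts and were at 0 in 5, 5 and 8 libraries. Of 5 tested erythroid genes, 5 were below 0 in both comparisons with vehicle, with medians of -2.04 and -1.91 (-1.34 and -1.25 without vehicle replicate 1), and their sum was 201 to 625 CPM in vehicle tumors, 58.1 to 109 CPM in R788 + anti-PDL1 and 48.8 to 183 CPM in irradiated tumors. Skeletal muscle genes summed to 71.4 to 83.6 CPM in vehicle tumors, 44.3 to 63.3 CPM in R788 + anti-PDL1 and 793, 175 and 163 CPM in irradiated replicates 1 to 3. Tnni2 alone made up 763, 164 and 153 CPM of the irradiated sums. In the library that stood apart Ckm (10.9 CPM), Tnnt3 (9.94 CPM), Mylpf (5.38 CPM) and Acta1 (0.810 CPM) were also at their highest of all 9 libraries. Tnnc2 (2.50 CPM), Atp2a1 (0.295 CPM), Myh1 (0.221 CPM), Myh4 (0) and Mb (0) were not. edgeR called 0 genes in the comparisons with vehicle for the mural, fibroblast, lymphatic, erythroid, T and NK cell, neutrophil, Schwann and mesenchymal, skeletal muscle, adipocyte, keratinocyte and proliferation lists. Over these lists DESeq2 called 4 erythroid genes lower in R788 + anti-PDL1 and 2 in irradiated tumors. It called S100a8 and S100a9 of 5 tested neutrophil genes lower in R788 + anti-PDL1, 3 of 10 fibroblast genes higher there (Col1a2, Mfap5 and Pi16) and 2 in irradiated tumors (Fap and Mfap5). S100a8 (0.164 to 0.343 CPM) and S100a9 (0.0881 to 0.381 CPM) lay near or below the limit of detection in R788 + anti-PDL1. In vehicle they were at 0.607 to 3.36 and 0.883 to 4.0 CPM. In R788 + anti-PDL1 replicates 1 to 3 Col1a2 was at 37.7, 194 and 77.9 CPM and Pi16 at 2.11, 33.1 and 10.4 CPM. Both overlapped vehicle (19.2 to 43.6 and 2.52 to 2.87 CPM), whereas Mfap5 did not. The fibroblast median in R788 + anti-PDL1 was 0.41, and 0.11 without its replicate 2. The other DESeq2 calls, higher unless marked, were Acta2, Pdpn (lower), Cd44, Twist1 and Krt5 in R788 + anti-PDL1, and Cspg4, Ckm, Tnni2, Krt5, Twist1, Vim and Prrx1 (lower) in irradiated tumors, with 0 for the adipocyte and proliferation lists. In R788 + anti-PDL1 replicates 1 to 3 Krt5 was at 1.89, 63.0 and 22.7 CPM and overlapped vehicle (3.05 to 7.50 CPM). Of 8 tested noradrenergic neuroblast genes, 1 (Isl1) was called higher in R788 + anti-PDL1, with a count of 0 in all vehicle libraries, while DESeq2 called 3 (Isl1 higher, Ddc and Gata3 lower) and, in irradiated tumors, Isl1. Gata3 was at 11.4, 0.179 and 3.01 CPM in vehicle replicates 1 to 3 and overlapped R788 + anti-PDL1 (0.305 to 0.661 CPM).

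Hypoxia genes were set beside Vegfa, and their relation to its level was not tested. Of 25 tested, 22 had values below 0 in R788 + anti-PDL1 against vehicle, with a median of -0.58, and 16 in irradiated tumors, with a median of -0.37. The first median was -0.33, with 20 below 0, without R788 + anti-PDL1 replicate 2, whose summed level of 5622 CPM lay below the 10887 and 9354 CPM of its group, and the second was -0.23 without irradiated replicate 3. edgeR called Ddit4 and Pdk1 lower in the first comparison and 0 in the second, whereas DESeq2 called the same 2 in the first and 4 in the second (Car9 higher, and Adm, Kdm3a and Mxi1 lower). Over all genes the shares were 0.678% and 0.0439% by edgeR and 4.83% and 3.84% by DESeq2. Without 1 library at a time edgeR called Ddit4 in 1 of 6 fits (without vehicle replicate 1) and Pdk1 in 0. In these fits 0 to 77 of all 15931 genes were called. Ddit4, an inhibitor of mTOR signalling induced by stress, was at 148, 204 and 211 CPM in vehicle tumors, at 74.7, 50.7 and 65.1 CPM in R788 + anti-PDL1 and at 136, 116 and 120 CPM in irradiated tumors (-1.56 ± 0.22, adjusted p = 0.0375, in R788 + anti-PDL1). Pdk1, which encodes a kinase that inhibits pyruvate dehydrogenase, gave -1.08 ± 0.18 (adjusted p = 0.0383). Of 9 regulators of the hypoxia-inducible factors, 0 were called by edgeR in any comparison, and their median was -0.04 in both comparisons with vehicle, while DESeq2 called Epas1 higher in R788 + anti-PDL1. Of 31 tested angiogenic factors outside the VEGF family, 2 were called higher in R788 + anti-PDL1 against vehicle, namely Met, the hepatocyte growth factor receptor (3.63 ± 0.65, adjusted p = 0.0450), and Spry1, an inhibitor of receptor tyrosine kinase signalling (3.05 ± 0.42, adjusted p = 0.0375). Met was at 0.110, 0.359 and 0.821 CPM in vehicle tumors, the first below the limit of detection, so that its fold changes rest on low vehicle values. It was at 7.66, 2.17 and 6.30 CPM in R788 + anti-PDL1 and at 21.7, 32.0 and 30.0 CPM in irradiated tumors. The list's median was 0.73 in R788 + anti-PDL1 against vehicle and 0.57 in irradiated tumors, where Met alone was called (6.01 ± 0.70, adjusted p = 0.0276). DESeq2 called 6 and 4 of the list, each of them higher, where it called 4.83% and 3.84% of all genes. The first median was 0.45 without R788 + anti-PDL1 replicate 2. With 1 library left out at a time edgeR called Met in 1 and Spry1 in 2 of 6 fits of the first comparison, and Met in 2 of 6 of the second. Of all 15931 genes, the fits of the first called 0 to 77 and those of the second 1 to 57.

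The genes most like each member were listed by Pearson's r over the 9 libraries on log2 CPM, among 11635 tested genes whose counts averaged 50 or more, leaving out predicted genes and other members. The libraries share their group structure, and no test was applied. For Flt1 these were Cdh5 (0.991), the cadherin of endothelial junctions, Pdgfra (0.984) and Onecut2 (0.983), and the same 3 led without the library that stood apart. For Kdr they were Thbs1 (0.988), Rbm15 (0.979) and Ednrb (0.972), for Nrp2 Tbc1d4 (0.987), Dclk2 (0.977) and Clec7a (0.976), and for Nrp1 Fmnl1 (0.950), Zmynd15 (0.947) and Il2rb (0.944). Of the genes listed for Nrp1 and Nrp2, Fmnl1, Il2rb and Clec7a are known from immune cells. Without the library that stood apart, Il2rb was the only one of these that stayed among the closest 3. Vegfa was most like Sbno2 (0.973), Trim56 (0.968) and Vps4b (0.964), Vegfb most like Srp54c (0.973), Pgrmc2 (0.970) and Arl6ip6 (0.966), and Pgf most like Ldhb (0.992), Gkap1 (0.985) and Setd3 (0.984). For Flt4 the genes were Kank2 (0.919), Agrn (0.902) and Mxra8 (0.897), and for Vegfc Hirip3 (0.898), D3Ertd751e (0.888) and Acvr2b (0.887). Without the library that stood apart, the 3 genes closest to each member included 2 of those listed for Vegfa, 1 for Kdr, Nrp1, Nrp2 and Vegfc, and 0 for Vegfb, Pgf and Flt4.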

How the data were processed

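RNA-seq libraries from 9 whole tumors were analysed, 3 for each of 3 groups given by the labels. The authors deposited 1 table of estimated counts per gene symbol (whole numbers). Per the submitters' processing notes, STAR 2.6.1d, Salmon 1.4.0, SAMtools 1.9, Picard 2.26, MultiQC 1.11 and the mm10 build were used. Annotation and strandedness are not given in the sources used here, so that reads from overlapping genes cannot be told apart. The labels and the study's methods differ on the sequencer and on paired or single reads. Each of the 9 columns matched 1 sample.

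From the counts, CPM were computed with TMM scaling in edgeR 4.0.16 (R 4.3.3). Genes were kept by filterByExpr (minimum count 10), and edgeR's quasi-likelihood F test (robust) was fitted to all 9 libraries, with 1 coefficient per group and no covariate. Benjamini-Hochberg adjustment ran over all 15931 genes tested, and genes were called at an adjusted p below 0.05. The script was tested on simulated data. Ratios used log2 of counts with 0.5 added and two-sided exact permutation tests in scipy 1.17.1. Alternatives were DESeq2 1.42.0, limma 3.58.1 voom with and without sample quality weights, other scalings and filters, fewer libraries and a replicate block. Those added after the data were seen were DESeq2 without Rad + R788 + anti-PDL1 replicate 1 and a spread estimated without it.

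The 9 members were named whatever their values, with the 3 genes most like each by Pearson's r, and of 20 gene lists the genes called or the defining markers. Members and lists were chosen with earlier results of these data known. Some lists share genes, and Vegfa and Vegfb are also in a gene panel of the study. Promoters were from RefSeq GRCm38.p6 and gene positions from GENCODE M21.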

Additional observations from a re-analysis of the deposited data

How the results depend on the processing

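In R788 + anti-PDL1 against vehicle the number of members called was 0 by edgeR, 3 by DESeq2, 6 with sample quality weights in limma-voom (30.3% of all genes), 3 by edgeR with only the libraries compared (3.46%), 3 with the spread estimated without Rad + R788 + anti-PDL1 replicate 1 (5.44%) and 4 by DESeq2 without that library (13% of all genes). In Rad + R788 + anti-PDL1 against vehicle it was 2 by DESeq2 with (3.84% of all genes) or without that library (5.94%) and 3 with quality weights (12.6%). Between the treated groups it was 2 with quality weights (19.4%), and in both treated groups against vehicle it was 3 by DESeq2 with or without that library and 4 with quality weights (20.9%). In that last contrast DESeq2 called 689 of all 15931 genes with that library and 1709 without it. Leaving out 1 replicate at a time gave 0 to 0 members called in each comparison of 2 groups and 0 to 2 in both treated groups against vehicle, with 2 reached without Rad + R788 + anti-PDL1 replicate 1. Of all 15931 genes these fits called 0 to 77 in R788 + anti-PDL1 against vehicle and 1 to 57 in irradiated tumors against vehicle. They called 0 to 22 between the treated groups and 0 to 499 in both treated groups against vehicle. RLE and upper quartile scaling, no filter on low counts and at least 10 counts in every library, which removed Vegfc, called 0 members in each comparison. The cause of these differences was not tested. With the replicate block 0 members were called in all 4 comparisons. No pairing by replicate number was shown, and with 3 samples a group this check cannot exclude one. The deviations of same-numbered samples correlated at -0.046 to 0.233, with 2 of 9 over 0.1 and the own number the best match in 7 of 18. Those 2 were vehicle with irradiated replicates 1 (0.233) and 2 (0.191), while samples of different numbers correlated at -0.225 to 0.123. Upper quartile scaling moved the median of all genes in Rad + R788 + anti-PDL1 against vehicle from 0.05 to 0.11.

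The log2 fold changes that turned sign belonged to differences that no setting called in the reversed direction. In Rad + R788 + anti-PDL1 against vehicle, Kdr was -0.011 under the replicate block and ranged from -0.18 to 0.39 leaving out 1 replicate at a time, Flt4 was -0.036 with quality weights and ranged from -0.15 to 0.16, Pgf was -0.033 by DESeq2 without replicate 1 and ranged from -0.016 to 0.83, and Flt1 was 0.078 by DESeq2 without replicate 1 and ranged from -0.47 to 0.094. Between the treated groups Vegfa was 0.061 by DESeq2 without replicate 1 of the irradiated tumors and 0.012 with quality weights and ranged from -0.23 to 0.078, Vegfb ranged from -0.20 to 0.0051, and Nrp1 was 0.21 by DESeq2 without that library and 0.26 with quality weights and ranged from -0.72 to 0.27. In both treated groups against vehicle Pgf was -0.26 by DESeq2 without that library, -0.047 by limma-voom and -0.13 with quality weights and ranged from -0.25 to 0.32, and Flt1 was -0.016 with quality weights and ranged from -0.13 to 0.24. Flt1 in the comparison of R788 + anti-PDL1 with vehicle lay between -0.041, without R788 + anti-PDL1 replicate 2, and 0.59.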
